A study of Mus musculus with 4 samples.

Results

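ATV:4D9 was set against its isotype control, ATV:ISO, in wild-type mice by single-cell RNA sequencing of sorted brain myeloid cells, with the counts of all cells of a mouse summed so that each mouse gave 1 value per gene. The members are the 8 wild-type mice among 20 mice of the study, chosen by the group recorded for each cell, 4 given ATV:4D9 and 4 given ATV:ISO, with 25798 of 74758 cells. ATV:4D9 is the mouse TREM2 antibody 4D9 on a human IgG backbone with mutations that lower Fc receptor binding and with a site in its Fc domain that binds the transferrin receptor and so carries it across the blood-brain barrier. Every mouse of both groups carried the TfRmu/hu knock-in, in which the apical domain of human transferrin receptor replaces the mouse one, on a C57BL/6J background, and neither group carried the AppSAA allele. Each mouse received 1 intravenous dose of 10 mg/kg and was sampled 1 day later. The isotype group is recorded as ATV-DNP02, which was read as ATV:ISO, and 1 of its mice is recorded as female while the other 7 mice are recorded as male. Over all experiments the wild-type TfRmu/hu mice were 2 to 8 months old, and no age is clearly tied to these 8 mice in the sources used here. An entry of the study's reporting summary names WT together with AppSAA and TfRmu/hu and gives male mice of 8 months. Whether that entry covers these 8 mice is not said. The deposited texts name either cortex or cortex with hippocampus as the tissue, and either CD11b or CD45 with CD11b for the sort. The cells of 1 mouse of every group were tagged with multiplexing oligos and captured together in each of 4 pools, so every ATV:4D9 mouse has an ATV:ISO mouse of its own pool, and replicates 1 to 4 are pools 1 to 4 throughout.

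TREM2 is a surface receptor of microglia that senses lipids, lipoproteins and cell debris. It has no signalling tail of its own and pairs with the adaptor DAP12, encoded by Tyrobp, whose phosphorylated motifs recruit the kinase SYK and, through it, PI3 kinase and PLCγ2. In brain, this pathway is known for microglial survival and division around amyloid, for lipid and glucose metabolism, and for the passage from the resting, homeostatic state to the disease-associated state.

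The ATV:ISO mice gave 2193, 2465, 2210 and 2988 cells and the ATV:4D9 mice 4512, 4232, 2971 and 4227 cells, with summed totals of 17150296 to 28310535 and 52185283 to 79396175 UMIs. All 6 defining markers of microglia were present in every mouse, with a summed level of 19848 to 21953 CPM after ATV:ISO and 14397 to 15768 CPM after ATV:4D9. CPM here means counts per 1000000 UMIs of a mouse, after the totals are scaled by TMM, which corrects for a few genes taking up a larger share. Of 5 lymphocyte markers none passed the filter on low counts, and their summed level was at most 0.55 CPM. The 5 neuron markers summed to 1.17 to 2.03 CPM after ATV:ISO and 0.707 to 1.30 CPM after ATV:4D9. The 5 border macrophage markers summed to 16.1 to 27.9 and 9.24 to 26.6 CPM. The 5 neutrophil markers, among them Mpo, Ly6g and S100a8, summed to 5.16 to 19.1 and 13.6 to 22.9 CPM, with 1 of the 5 at 0 in all 8 mice. The 5 monocyte markers summed to 4.74 to 7.65 and 6.32 to 8.12 CPM, and of the 3 tested 2 were called higher and 1 lower. The 5 oligodendrocyte markers summed to 28.5 to 39.7 CPM after ATV:ISO and 16.8 to 28.95 CPM after ATV:4D9, and its 3 tested members were called lower. The astrocyte sum, 137 to 154 CPM after ATV:ISO and 68.9 to 80.4 CPM after ATV:4D9, was almost all Slc1a3, and did not overlap between groups. The endothelial and mural sum, 478 to 635 CPM after ATV:ISO and 613 to 856 CPM after ATV:4D9, was almost all Bsg. Microglia also express both genes. Over these 8 lists, 24 members passed the filter on low counts, 4 of them called higher and 8 lower, against 37.1% and 37.9% of all genes. The part of these cells in the results below was not tested.

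Xist, the RNA that silences 1 X chromosome in females, checked the recorded sex. Its level was 0.234, 0.234, 0.0944 and 1384 CPM in the 4 ATV:ISO mice and 0.171, 0.354, 0.216 and 6.90 CPM in the 4 ATV:4D9 mice, so the mouse recorded as female stood out, and the male ATV:4D9 mouse of the same pool was above the other males. The Y-linked gene Ddx3y stood at 81.97, 83.7, 93.8 and 5.79 CPM after ATV:ISO and 54.5, 63.02, 61.8 and 61.6 CPM after ATV:4D9, which puts the recorded female far below the other mice but not at 0. How these transcripts came to be counted there was not tested. Of the 25739 distinct cell barcodes in the 8 mice, 59 occur in more than 1 pool and none is shared within a pool.

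Cells of mice given ATV:4D9 held about 2.03 times as many UMIs. The median number of UMIs per cell was 6859, 7189, 8042 and 8174 after ATV:ISO and 14722, 13479, 15862 and 17290 after ATV:4D9, and the groups did not overlap. The difference was 7773 UMIs (exact permutation test over mice, two-sided, p = 0.0286, the smallest that 4 against 4 mice can give). The median number of genes per cell was likewise higher in 4 of 4 pools, at 2795 ± 180.5 after ATV:ISO and 4071 ± 234 after ATV:4D9 (SD, n = 4, exact permutation p = 0.0286). Cells with more than 25000 UMIs made up 0.684 to 2.18% of the cells of the ATV:ISO mice and 9.10 to 19.7% after ATV:4D9. Doublets of cells of 1 mouse carry 1 oligo and are not seen by it. Among cells of 1000 to 25000 UMIs the median was 7528 ± 619 after ATV:ISO and 14011 ± 1074 after ATV:4D9 (SD, n = 4, exact permutation p = 0.0286). The number of cells per mouse was higher in 4 of 4 pools too, 1.34 to 2.06 times (exact permutation p = 0.0571), and the protocol combined the cell suspensions of a pool in equal shares before the sort. Since CPM compares genes with each other within a mouse, a fall in CPM can go with an unchanged or higher number of UMIs per cell, and per-cell counts and changes are therefore given beside most falls in CPM.

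**Figure D1:**
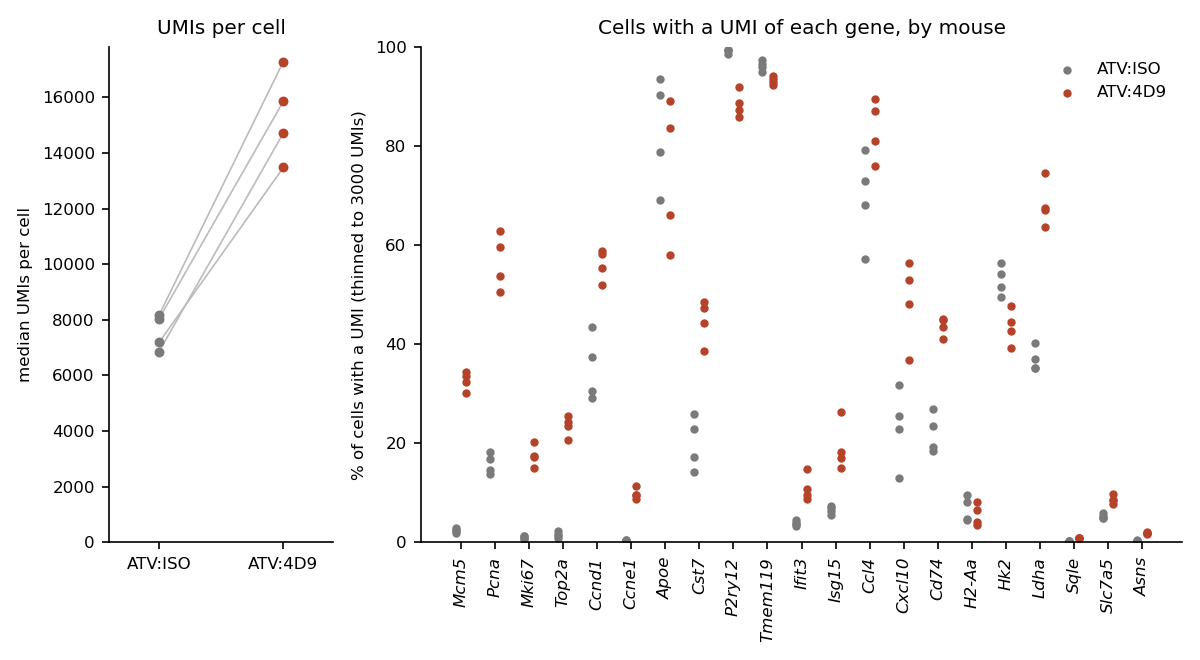
Left, the median number of UMIs per cell of each mouse, with lines joining mice of a pool. Right, the percent of cells with at least 1 UMI of each of 21 genes in each mouse after every cell was thinned to 3000 UMIs, grey for ATV:ISO and red for ATV:4D9 (Mcm5 sits at 1.94 to 2.97% in grey and 30.1 to 34.5% in red).

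On the CPM scale 9940 of 13259 genes tested were called at an adjusted p below 0.05 (edgeR quasi-likelihood test with the pool as a block, Benjamini-Hochberg adjustment over all genes tested), 4917 higher after ATV:4D9 (37.1% of the genes tested) and 5023 lower (37.9%). Rises were larger than falls. A change of more than 2-fold was seen in 1562 genes called higher and 747 called lower, and one of more than 8-fold in 245 and 8. The median log2 fold change of all genes was -0.02 in the fit. Taken from the group means of CPM without TMM scaling, and with no fit, the median was -0.16. Counted as UMIs per cell in place of CPM, the median gene was 1.74 times as high after ATV:4D9 (log2 0.80), 81.1% of genes were called higher and 4.54% lower. The per-cell fit uses the same counts with the number of cells as library size, so every log2 fold change moves up by a similar amount. A change kept per cell is therefore no separate support. Counts of list members called, in CPM or per cell, are to be read against the shares of all genes given here. The lists and their members were chosen with earlier results of these data known, so such counts are partly given by that choice. Of the 5023 genes called lower in CPM, 602 were also called lower in UMIs per cell, 1416 were not called and 3005 were called higher. In sums over all cells, fewer cells of a state and less RNA per cell of it cannot be told apart.

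**Figure D2:**
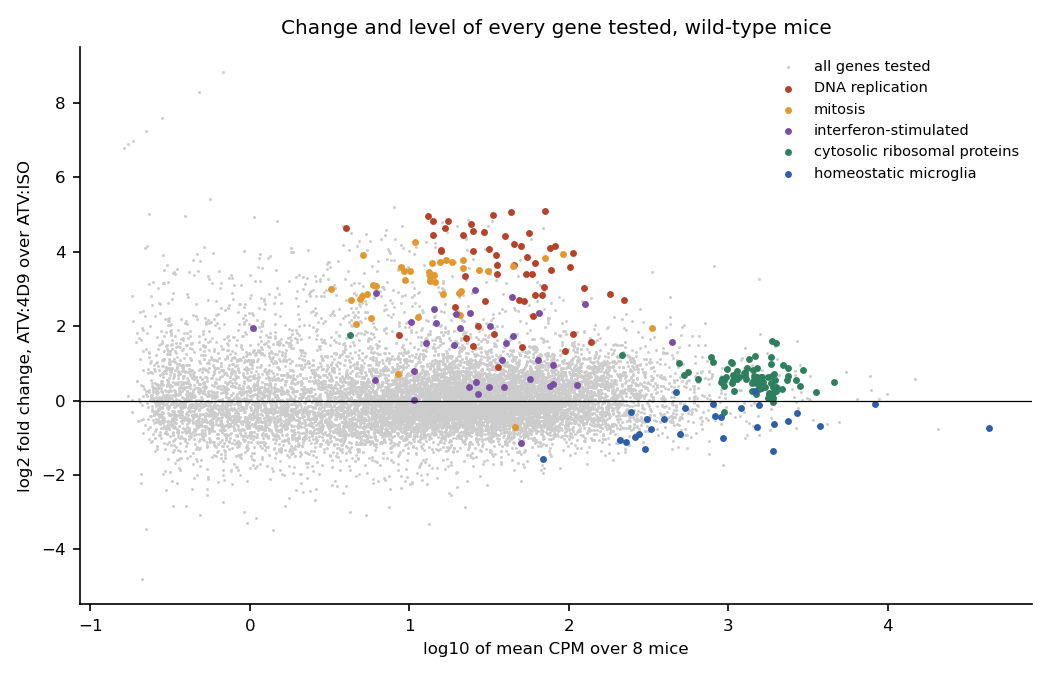
Each point is 1 gene, with the log10 of its mean CPM over the 8 mice on the x axis and the log2 fold change of ATV:4D9 over ATV:ISO on the y axis. Genes of DNA replication and mitosis form the top of the plot, with medians of 3.64 and 3.25, the abundant ribosomal proteins lie above 0 with a median of 0.58, and the homeostatic genes lie mostly below it with a median of -0.60.

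Among genes that passed a limit on mean CPM, cell cycle genes showed the largest rises. The rule took the 10 called genes with the largest rise, higher in 4 of 4 pools. Their mean over the mice of both groups had to be at least 10 CPM. They were Hells, Dtl, Ung, Exo1, Ccne1, Ccne2, Cdc6, Mcm10, Chek1 and Brca1, with log2 fold changes from 4.74 to 5.10. All 10 passed the limit through their level after ATV:4D9. Their means after ATV:ISO ran from 0.810 CPM (Exo1) to 4.00 CPM (Hells). Exo1, a nuclease of mismatch repair, stood at 0.762, 0.61, 1.09 and 0.785 CPM after ATV:ISO and 28.00, 23.5, 26.5 and 23.6 CPM after ATV:4D9 (log2 fold change 4.95 ± 0.10 (SE), adjusted p = 5.76e-10). Cdc6, which loads the replicative helicase onto origins, stood at 1.41, 1.08, 0.944 and 1.28 CPM after ATV:ISO and 34.5, 34.6, 35.5 and 30.8 CPM after ATV:4D9 (log2 fold change 4.83 ± 0.10 (SE), adjusted p = 4.41e-10). All 10 encode proteins of the G1 to S passage, of replication or of its checkpoint and repair. The recorded female ATV:ISO mouse held 5.79 CPM of the Y-linked Ddx3y. The part of RNA from other mice of a pool in the low ATV:ISO levels, and so in these fold changes, was not tested.

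The list of DNA replication genes behaved as 1 block. All 56 of its 56 members were called higher, against 37.1% of all genes, with a median log2 fold change of 3.64 and a range of 0.91 to 5.10, and the 2 groups of mice did not overlap in any of them, against no overlap in 57.7% of all genes tested. Mcm5, a subunit of the replicative helicase, stood at 9.67, 7.08, 8.17 and 10.01 CPM after ATV:ISO and 171, 139, 160.1 and 152 CPM after ATV:4D9, 17.7-fold higher (log2 fold change 4.15 ± 0.07 (SE), adjusted p = 3e-10). Pcna, the sliding clamp of the polymerases, stood at 57.1, 51.1, 59.1 and 64.95 CPM after ATV:ISO and 378, 312, 435 and 410.2 CPM after ATV:4D9 and rose 6.57-fold (log2 fold change 2.72 ± 0.05 (SE), adjusted p = 3.83e-10). After every cell was thinned to 3000 UMIs, a UMI of Mcm5 was present in 1.94 to 2.97% of cells after ATV:ISO and 30.1 to 34.5% after ATV:4D9 (exact permutation p = 0.0286, adjusted over 22 genes 0.0331). One of Pcna was present in 13.8 to 18.2% of cells after ATV:ISO and 50.5 to 62.8% after ATV:4D9 (exact permutation adjusted p = 0.0331). Without thinning, the shares for Mcm5 were 5.19 to 8.50% and 70.6 to 78.9%. Cells of a type that should lack these transcripts were not set apart, so the part of free RNA in these shares was not tested.

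Genes of the G1 to S switch lie upstream of these. Of the 21 cyclins, E2F factors and pocket proteins tested, 18 were called higher and 3 lower. E2f1, which switches on replication genes, stood at 5.68, 4.55, 4.48 and 6.48 CPM after ATV:ISO and 128, 107, 105 and 98.99 CPM after ATV:4D9 (log2 fold change 4.34 ± 0.10 (SE), adjusted p = 9.18e-10). Ccnd1, the D-type cyclin that answers growth signals, started from a much higher level, 213, 125, 131 and 163 CPM after ATV:ISO and 360.0, 288, 354 and 359 CPM after ATV:4D9, and rose 2.20-fold (log2 fold change 1.14 ± 0.09 (SE), adjusted p = 1.97e-06). Ccne1, the cyclin that opens S phase, stood at 1.99, 1.17, 1.51 and 1.54 CPM after ATV:ISO and 55.96, 43.2, 41.7 and 39.2 CPM after ATV:4D9, with no overlap between groups. In thinned cells a UMI of it was found in 0.292 to 0.438% of cells after ATV:ISO and 8.66 to 11.5% after ATV:4D9 (exact permutation adjusted p = 0.0331). Rbl2, a pocket protein that holds resting cells out of the cycle, was 1.57-fold lower (-0.65 ± 0.06 log2, adjusted p = 3.75e-06, per cell 0.17).

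Promoter windows of the replication and G1 to S genes are printed here because the members moved together and because their E2F motifs can be read off. The windows run from 250 bases before to 50 after the transcription start (RefSeq, GRCm38.p6) on the strand of the gene, and capitals mark any of the E2F letters TTTGGCGC, TTTCGCGC, TTTCCCGC or TTTGCCGC, read on either strand. Hells, a chromatin remodeller, lies at chr19:38930915-38971051, Dtl, a subunit of the ligase that degrades replication licensing factors, at chr1:191537356-191575544, and Cdc6 at chr11:98907801-98923940 (GRCm38, GENCODE vM21). The RefSeq start used for Cdc6 lies downstream of this GENCODE start. Its whole window, with the marked letters, thus lies inside the GENCODE span of the gene.
Hells (chr19:38930740-38931039, plus strand): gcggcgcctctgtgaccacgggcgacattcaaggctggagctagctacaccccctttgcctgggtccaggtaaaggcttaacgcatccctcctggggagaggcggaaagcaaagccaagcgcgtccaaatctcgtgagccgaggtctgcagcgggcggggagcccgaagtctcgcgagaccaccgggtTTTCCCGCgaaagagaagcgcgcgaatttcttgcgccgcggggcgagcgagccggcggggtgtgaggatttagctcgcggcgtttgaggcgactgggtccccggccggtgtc
Dtl (chr1:191575495-191575794, minus strand): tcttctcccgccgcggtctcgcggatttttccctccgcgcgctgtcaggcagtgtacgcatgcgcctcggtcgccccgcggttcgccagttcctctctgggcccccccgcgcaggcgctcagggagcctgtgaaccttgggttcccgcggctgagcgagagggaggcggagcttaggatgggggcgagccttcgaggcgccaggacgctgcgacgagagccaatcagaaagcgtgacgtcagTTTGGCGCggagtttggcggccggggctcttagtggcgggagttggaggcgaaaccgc
Cdc6 (chr11:98907901-98908200, plus strand): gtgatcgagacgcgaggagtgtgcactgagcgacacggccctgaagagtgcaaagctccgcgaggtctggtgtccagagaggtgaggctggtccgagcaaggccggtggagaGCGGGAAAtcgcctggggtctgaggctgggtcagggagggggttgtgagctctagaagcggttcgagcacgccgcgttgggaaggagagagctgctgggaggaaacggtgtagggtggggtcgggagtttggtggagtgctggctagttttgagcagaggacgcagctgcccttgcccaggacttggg
Such letters stood in 36.7% of the 49 windows found for the replication list and in 42.1% of 19 windows of the G1 to S list, compared with 2.26% of all 32851 windows and 4.05% of the 12731 windows of the genes tested. They stood in 9.85% of windows of genes called more than 2-fold higher and in 1.74% of those called more than 2-fold lower. Each search covered both strands, no motif searched contains another, and neighbouring matches can overlap. A match is a description of letters and says nothing of binding.

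Mitotic genes rose as well. Of 40 tested, 39 were called higher with a median log2 fold change of 3.25, and the exception was Pttg1, the securin that guards sister chromatids, which was 1.64-fold lower in the means and had no overlap between groups (-0.71 ± 0.06 log2, adjusted p = 1.86e-06, per cell 0.11). Mki67, the standard marker of cycling cells, stood at 5.39, 5.86, 14.8 and 11.3 CPM after ATV:ISO and 135, 114, 144 and 135 CPM after ATV:4D9 (log2 fold change 3.84 ± 0.17 (SE), adjusted p = 4.85e-08). Bub1, a kinase of the spindle checkpoint, had the largest rise of the list, 19.2-fold (log2 fold change 4.26 ± 0.13 (SE), adjusted p = 6.09e-09). In thinned cells a UMI of Mki67 was present in 0.574 to 1.32% of cells after ATV:ISO and 15.1 to 20.2% after ATV:4D9, and one of Top2a, the topoisomerase that untangles sister chromatids, in 0.816 to 2.28% of cells after ATV:ISO and 20.7 to 25.5% after ATV:4D9 (exact permutation adjusted p = 0.0331 for each). The share of cells with a UMI of Mcm5 was thus above that of Mki67 in each ATV:4D9 mouse. Mitotic promoters are known for the cell cycle homology region, here the letters TTTGAA or TTCGAA on either strand, which stood in 78.9% of 38 windows of the mitosis list, in 19.2% of all windows and in 14.4% of those of the genes tested. CCAAT stood in 73.7%, 37.4% and 38.03%. The E2F letters stood in 2.63% of the mitosis windows. Bub1 and Top2a are shown with the cell cycle homology letters in capitals, and TTCGAA reads the same on both strands.
Bub1 (chr2:127831810-127832109, minus strand): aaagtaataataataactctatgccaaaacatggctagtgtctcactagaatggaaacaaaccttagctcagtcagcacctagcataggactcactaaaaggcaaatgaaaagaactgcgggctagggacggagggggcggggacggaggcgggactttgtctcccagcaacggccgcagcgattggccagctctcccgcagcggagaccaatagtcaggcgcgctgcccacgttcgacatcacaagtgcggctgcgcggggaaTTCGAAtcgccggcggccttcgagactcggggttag
Top2a (chr11:99024140-99024439, minus strand): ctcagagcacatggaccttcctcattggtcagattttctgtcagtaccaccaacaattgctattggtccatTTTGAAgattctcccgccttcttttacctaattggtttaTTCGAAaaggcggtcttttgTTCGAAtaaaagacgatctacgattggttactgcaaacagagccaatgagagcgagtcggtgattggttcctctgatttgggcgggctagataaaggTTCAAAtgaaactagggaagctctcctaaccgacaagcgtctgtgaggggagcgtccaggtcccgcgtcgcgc

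Genes that restrain the cycle were mostly lower in CPM. In the list of CDK inhibitors and quiescence genes 17 of 21 were called lower, against 37.9% of all genes, and 4 higher. Per cell 7 were called higher and 7 lower, with a median of -0.05. Cdkn1c, an inhibitor that holds stem cells at rest, stood at 27.01, 24.2, 23.2 and 21.4 CPM after ATV:ISO and 5.69, 6.48, 5.48 and 5.16 CPM after ATV:4D9, 4.20-fold lower (log2 fold change -2.07 ± 0.07 (SE), adjusted p = 9.36e-09). Pdcd4, a repressor of translation, stood at 59.1, 66.1, 50.03 and 52.7 CPM after ATV:ISO and 17.3, 21.2, 17.4 and 17.3 CPM after ATV:4D9 (-1.64 ± 0.05 log2). Mxd4, which competes with MYC for its partner, stood at 66.7, 87.6, 88.7 and 81.5 CPM after ATV:ISO and 22.1, 27.6, 22.8 and 21.4 CPM after ATV:4D9 (-1.79 ± 0.07 log2). These 3 falls were larger than the common shift of the per-cell scale, where the log2 fold changes were -1.25, -0.82 and -0.97. The inhibitors that rose were Cdkn1a, Cdkn2c, Cdkn2d and Cdkn2a. Cdkn1a, which encodes p21 and is also a p53 target, stood at 42.5, 35.1, 41.5 and 43.01 CPM after ATV:ISO and 165, 122, 157 and 153 CPM after ATV:4D9 (log2 fold change 1.88 ± 0.04 (SE), adjusted p = 1.06e-09). Over the p53 target list 7 of 16 were called higher and 5 lower (per cell 13 higher and 1 lower), Cdkn1a included, close to the 37.1% and 37.9% of all genes. Mdm2, the feedback target, stood at 39.8, 38.9, 43.5 and 35.03 CPM after ATV:ISO and 34.98, 36.6, 37.1 and 36.02 CPM after ATV:4D9 (log2 fold change -0.11 ± 0.05 (SE), adjusted p = 0.0708), with overlapping groups, and was called lower without pool 4 (adjusted p = 0.0217), in the fit of all 20 mice with the pool block (0.0188) and with totals thinned to the lowest mouse (0.0398).

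Falls chosen by the same rule were those of Pde2a, Peg13, Ypel2, Pirb, Ablim1, Hist3h2a, Rnase6, Fcrl1, Kdm5b and Tcp11l2. Their log2 fold changes ran from -2.16 to -3.32. These falls were larger than the common shift of the per-cell scale, where all 10 were called lower, with log2 fold changes of -1.34 to -2.50. Their roles vary, and the groups did not overlap in those given here. Kdm5b, a demethylase of histone H3 lysine 4 (chr1:134560171-134635285), stood at 33.3, 46.3, 40.97 and 36.9 CPM after ATV:ISO and 4.41, 6.32, 5.28 and 5.49 CPM after ATV:4D9 (log2 fold change -2.87 ± 0.06 (SE), adjusted p = 3.83e-10). Pirb, an inhibitory receptor for MHC class I, stood at 20.7, 20.4, 20.7 and 23.2 CPM after ATV:ISO and 4.60, 4.81, 4.46 and 4.22 CPM after ATV:4D9 (log2 fold change -2.24 ± 0.08 (SE), adjusted p = 1.1e-08). Rnase6, an antimicrobial ribonuclease, stood at 34.6, 29.5, 29.7 and 26.5 CPM after ATV:ISO and 5.70, 6.22, 4.71 and 4.71 CPM after ATV:4D9 (log2 fold change -2.49 ± 0.08 (SE), adjusted p = 4.75e-09). Pirb has close paralogs in its cluster, and reads that fit more than 1 of them could be lost or assigned to either, which holds also for the Bcl2a1 genes, the tubulins and the ribosomal proteins below.

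**Figure D3:**
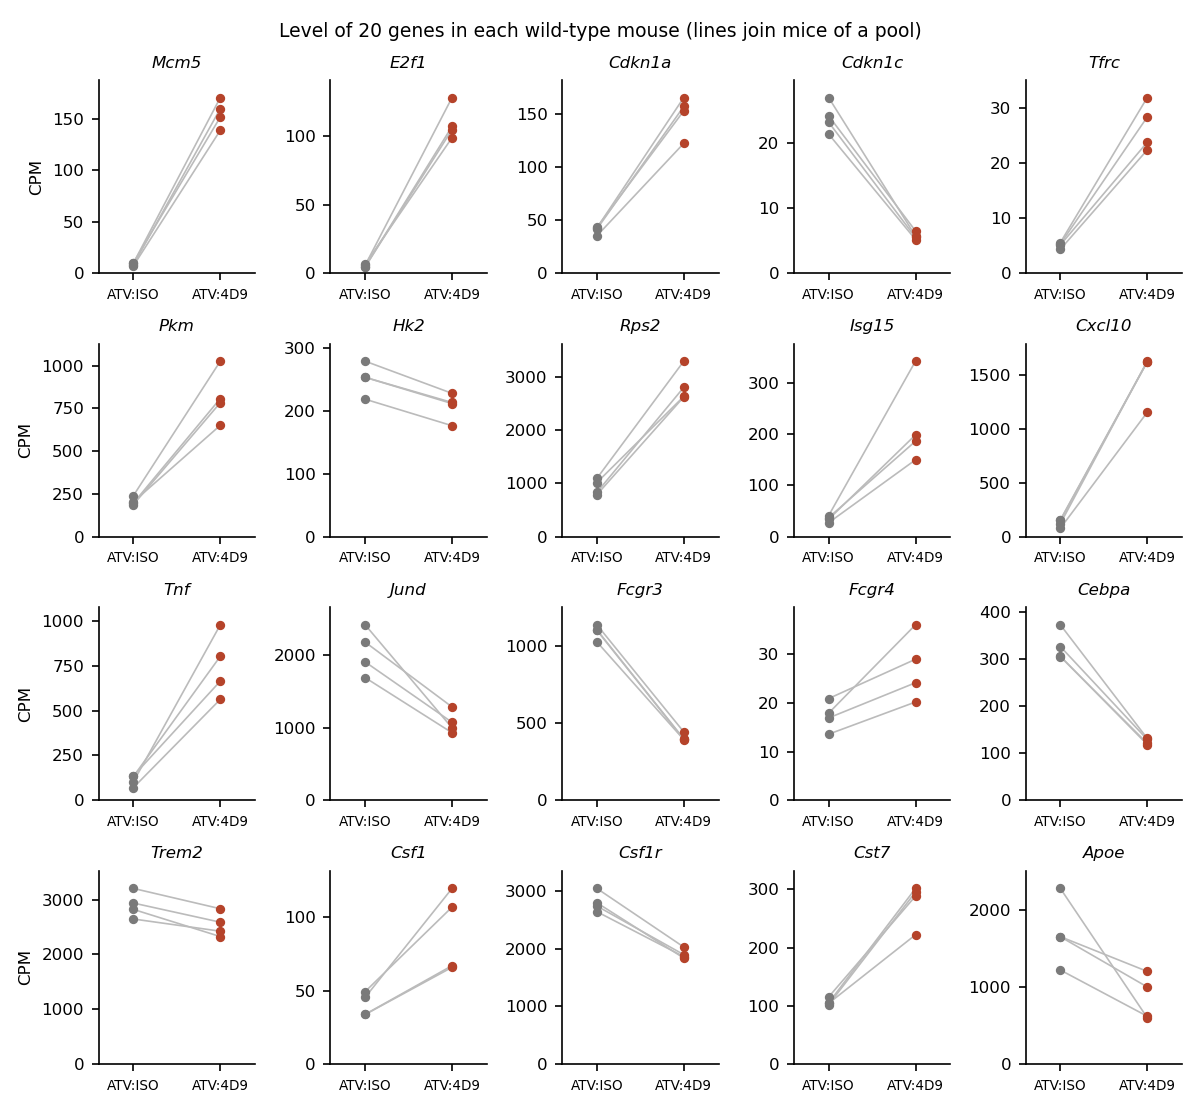
CPM of 20 genes in each wild-type mouse, ATV:ISO in grey and ATV:4D9 in red, with lines joining the mice of a pool and each axis starting at 0. The groups stand apart for Mcm5, E2f1, Cdkn1a, Cdkn1c, Cxcl10 and Fcgr3, whereas the points for Fcgr4 overlap.

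Growth and protein synthesis genes rose with the cycle. In ribosome biogenesis 48 of 49 members were called higher and none lower, with a median log2 fold change of 0.90. Ncl, the nucleolar protein nucleolin, stood at 297, 261, 254 and 245 CPM after ATV:ISO and 740.0, 672, 726 and 749 CPM after ATV:4D9 (log2 fold change 1.45 ± 0.06 (SE), adjusted p = 1.83e-08), while Myc itself rose 1.49-fold, from 38.8, 23.6, 24.3 and 36.3 CPM after ATV:ISO to 44.7, 47.2, 44.9 and 43.5 CPM after ATV:4D9 (log2 fold change 0.57 ± 0.12 (SE), adjusted p = 0.00218). Of 80 cytosolic ribosomal proteins 76 were called higher, and together they took 10.2 to 10.8% of the UMIs of the ATV:ISO mice and 13.3 to 14.7% after ATV:4D9. Rps27 was the member called lower (-0.30 ± 0.05 log2, adjusted p = 0.000712, per cell 0.52), and Rps2, second to Rpl39l in its rise, stood at 1096, 1018, 789.7 and 833 CPM after ATV:ISO and 3300, 2637, 2628 and 2809 CPM after ATV:4D9 (1.61 ± 0.07 log2). The mitochondrial ribosomal proteins gave 74 higher of 78, and the constitutive proteasome 32 of 32 with a narrow range of 0.19 to 1.13. Cytosolic and mitochondrial chaperones were called higher in 20 of 22, with a median of 0.95. Hspa1b, a heat shock gene outside this list, went down. Its log2 fold change was -1.09 without the pool block and -1.06 with DESeq2, and its call was lost there (adjusted p = 0.0646 and 0.0901). Chaperones of the ER rose in 16 of 19, among them Hspa5, the main chaperone of the ER, from 928, 1056, 827 and 736 CPM to 2483, 2043, 1880 and 1785 CPM (1.21 ± 0.07 log2), and Sdf2l1 by 4.12-fold (2.04 ± 0.06 log2).

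Genes for amino acid supply and for charging tRNA were mostly higher. Of 23 tested members of the amino acid list 17 were called higher, and 3 lower, while 18 of 20 tRNA synthetases were called higher. Psat1, of serine synthesis, stood at 16.6, 18.5, 17.3 and 20.2 CPM after ATV:ISO and 80.2, 67.00, 86.4 and 89.2 CPM after ATV:4D9 (log2 fold change 2.14 ± 0.07 (SE), adjusted p = 8.26e-09). Mthfd2, of the mitochondrial folate cycle, rose 4.23-fold (log2 fold change 2.08 ± 0.06 (SE), adjusted p = 4.73e-09). Ddit3, which encodes the stress factor CHOP, fell (-0.62 ± 0.07 log2, adjusted p = 3.39e-05, per cell 0.20). Atf4, the transcription factor that drives the amino acid genes, had a log2 fold change of -0.12 ± 0.07 (adjusted p = 0.151). The letters of an ATF4 element, TGATGNAA on either strand, stood in 41.7% of the 12 windows of the tRNA synthetases, 20.8% of 24 of the amino acid list, 3.97% of all windows and 2.36% of those of the genes tested. The window of Gars, which charges the glycine tRNA and rose 2.36-fold (log2 fold change 1.24 ± 0.05 (SE), adjusted p = 3.95e-08), is shown with these letters in capitals.
Gars (chr6:55037751-55038050, plus strand): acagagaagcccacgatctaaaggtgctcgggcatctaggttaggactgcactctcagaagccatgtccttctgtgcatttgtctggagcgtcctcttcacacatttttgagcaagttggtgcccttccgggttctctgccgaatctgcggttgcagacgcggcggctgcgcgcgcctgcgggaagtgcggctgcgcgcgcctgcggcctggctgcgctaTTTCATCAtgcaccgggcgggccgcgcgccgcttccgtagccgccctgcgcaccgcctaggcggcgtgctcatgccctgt

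In glycolysis 16 of 20 members were called higher. Pkm, which makes pyruvate, stood at 240.2, 204, 196 and 188 CPM after ATV:ISO and 1027, 652, 808 and 784 CPM after ATV:4D9 (log2 fold change 1.97 ± 0.07 (SE), adjusted p = 1.25e-08). Ldha, which makes lactate, stood at 183, 169, 144 and 144 CPM after ATV:ISO and 699, 439.7, 482 and 496 CPM after ATV:4D9 (log2 fold change 1.71 ± 0.08 (SE), adjusted p = 5.78e-08). The hexokinase Hk2, at the entry of the pathway, was called lower, at 254, 279, 219 and 254 CPM after ATV:ISO and 214, 228, 177 and 212 CPM after ATV:4D9 (log2 fold change -0.28 ± 0.04 (SE), adjusted p = 8.33e-05), and was higher per cell (0.54 log2). The groups overlapped in CPM, and Hk2 was lower in each pool. Thinned cells held a UMI of Ldha in 35.2 to 40.2% of cells after ATV:ISO and 63.7 to 74.6% after ATV:4D9 and one of Hk2 in 49.5 to 56.4% of cells after ATV:ISO and 39.3 to 47.8% after ATV:4D9 (exact permutation adjusted p = 0.0331 for each).

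Nuclear genes of the respiratory chain were called higher in 36 of 37 for complex I and in 41 of 42 for complexes II to V, with medians of 0.65 and 0.88. The 13 mitochondrially encoded transcripts were all called higher too, with a lower median of 0.39, although 8 were so without the pool as a block and 6 in the fit over all 20 mice without it. The groups of mice did not overlap in 4 of the 13, against 57.7% of all genes. The mean mitochondrial percent of a cell was 1.32 after ATV:ISO and 1.62 after ATV:4D9, higher in 4 of 4 pools (exact permutation p = 0.229). Citric acid cycle genes rose in 20 of 21, while fatty acid oxidation stayed closer to the background, with 10 of 20 called higher, 4 lower (per cell 19 higher and 0 lower) and a median of 0.11. Its entry enzyme Cpt1a stood at 11.2, 14.02, 15.9 and 14.8 CPM after ATV:ISO and 12.6, 13.1, 15.4 and 14.01 CPM after ATV:4D9 (log2 fold change -0.02 ± 0.07 (SE), adjusted p = 0.789). Mitochondrial import and fission genes were called higher in 25 of 25, with a median of 0.79. Nucleotide synthesis rose in 19 of 20, led by Ctps at 7.62, 5.72, 6.75 and 5.53 CPM after ATV:ISO and 37.9, 32.8, 30.8 and 34.3 CPM after ATV:4D9 (log2 fold change 2.42 ± 0.08 (SE), adjusted p = 5.77e-09).

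Sterol synthesis and sterol export differed in direction in CPM. Of 23 cholesterol synthesis genes 14 were called higher and 1 lower, against 37.1% and 37.9% of all genes. Per cell 23 were called higher and 0 lower, against 81.1% and 4.54%. Idi1, of the isoprenoid steps, stood at 6.39, 6.85, 5.66 and 5.66 CPM after ATV:ISO and 21.2, 21.02, 19.98 and 16.3 CPM after ATV:4D9 (log2 fold change 1.67 ± 0.07 (SE), adjusted p = 3.42e-08). Of 15 genes of lipid efflux 9 were called lower and 1 higher (per cell 13 higher and 0 lower, close to the shares of all genes). Their median per cell was 0.49, against 0.80 for all genes. Abca1, the cholesterol exporter, stood at 176, 206, 257 and 273 CPM after ATV:ISO and 119, 131, 163 and 168 CPM after ATV:4D9 (log2 fold change -0.65 ± 0.04 (SE), adjusted p = 3.49e-07, per cell 0.17). Fasn, the fatty acid synthase, rose 3.58-fold (log2 fold change 1.84 ± 0.07 (SE), adjusted p = 1.95e-08).

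Iron handling genes split in CPM. Tfrc, the transferrin receptor and the locus of the TfRmu/hu knock-in that all 8 mice carry, stood at 5.10, 4.31, 5.29 and 5.53 CPM after ATV:ISO and 23.7, 22.4, 28.3 and 31.9 CPM after ATV:4D9, 5.27-fold higher (log2 fold change 2.40 ± 0.07 (SE), adjusted p = 3.36e-09). Slc40a1, which encodes the iron exporter ferroportin, stood at 105, 138, 148 and 135 CPM after ATV:ISO and 48.5, 67.6, 66.7 and 60.9 CPM after ATV:4D9 (log2 fold change -1.11 ± 0.04 (SE), adjusted p = 1.23e-08, per cell -0.29). The ferritin chains Fth1 and Ftl1 rose by 0.76 ± 0.08 and 0.67 ± 0.07 on the log2 scale. Over the whole list 7 of 17 were called higher and 6 lower (per cell 14 higher and 1 lower), close in CPM to the background in both directions.

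**Figure D4:**
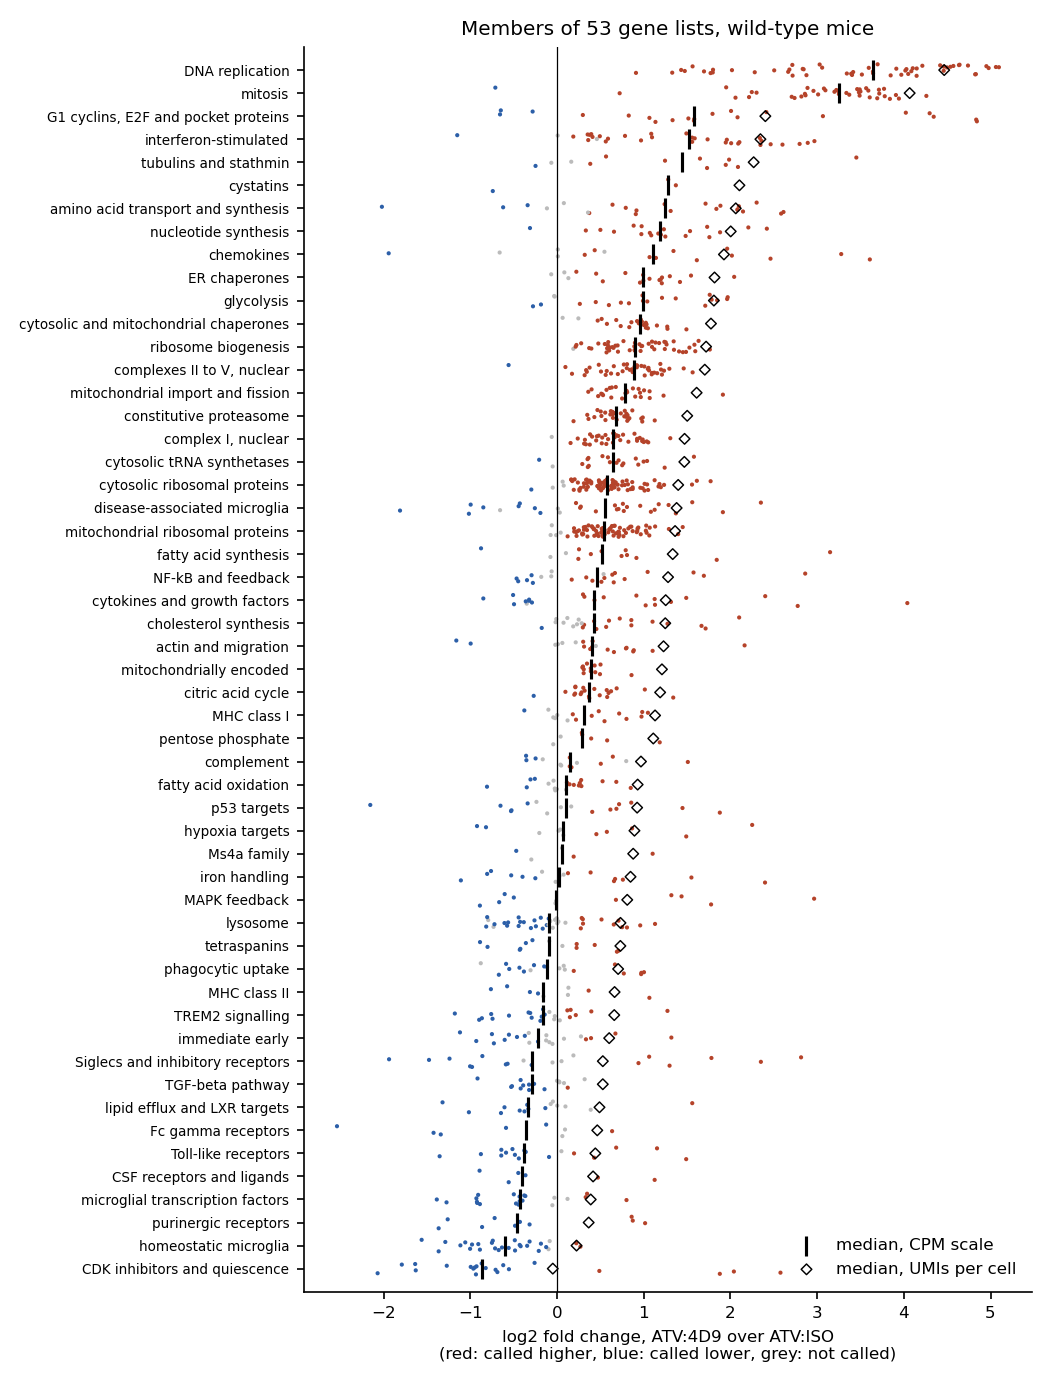
Each row is 1 of 53 gene lists and each point 1 member, placed by its log2 fold change of ATV:4D9 over ATV:ISO, with the black bar at the median on the CPM scale and the open diamond at the median of UMIs per cell. DNA replication is at the top with a median of 3.64 and the CDK inhibitors and quiescence genes are at the bottom with -0.87, the 1 list whose median per cell is below 0 (-0.05).

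Interferon-stimulated genes were called higher in 31 of 34, with a median of 1.53. Isg15, a ubiquitin-like protein, stood at 40.95, 27.2, 37.1 and 33.9 CPM after ATV:ISO and 342, 149.8, 186 and 198 CPM after ATV:4D9 (log2 fold change 2.60 ± 0.10 (SE), adjusted p = 2.09e-08). Ifit3, an antiviral RNA-binding protein, stood at 23.6, 21.6, 17.1 and 20.8 CPM after ATV:ISO and 167, 76.6, 93.99 and 101.7 CPM after ATV:4D9 (log2 fold change 2.35 ± 0.13 (SE), adjusted p = 1.38e-07). The ATV:4D9 mouse of pool 1 was the highest in both, and the groups did not overlap. In thinned cells a UMI of Isg15 was present in 5.43 to 7.29% of cells after ATV:ISO and 15.1 to 26.2% after ATV:4D9 (exact permutation adjusted p = 0.0331). The member called lower was Gbp7, an interferon-induced GTPase, at 67.7, 65.6, 70.2 and 71.9 CPM after ATV:ISO and 34.1, 30.2, 27.7 and 32.3 CPM after ATV:4D9 (log2 fold change -1.15 ± 0.06 (SE), adjusted p = 8.23e-08, per cell -0.33). Letters of the interferon-stimulated response element, GAAANNGAA on either strand, stood in 67.9% of the 28 windows of the list, in 8.56% of all windows and in 7.30% of those of the genes tested, and they are in capitals below.
Isg15 (chr4:156200769-156201068, minus strand): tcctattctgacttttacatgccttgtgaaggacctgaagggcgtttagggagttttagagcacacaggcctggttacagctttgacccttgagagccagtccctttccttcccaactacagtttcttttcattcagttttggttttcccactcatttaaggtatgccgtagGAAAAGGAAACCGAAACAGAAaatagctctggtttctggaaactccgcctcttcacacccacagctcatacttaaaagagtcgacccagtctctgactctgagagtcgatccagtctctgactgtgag
Ifit3 (chr19:34583279-34583578, plus strand): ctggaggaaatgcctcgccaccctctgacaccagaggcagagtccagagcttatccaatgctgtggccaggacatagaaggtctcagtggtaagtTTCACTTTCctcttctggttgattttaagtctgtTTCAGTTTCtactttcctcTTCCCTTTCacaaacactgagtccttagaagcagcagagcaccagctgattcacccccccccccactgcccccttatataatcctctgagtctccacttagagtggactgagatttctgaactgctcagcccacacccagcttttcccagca

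Chemokines rose in 11 of 16 tested and fell in 1. Cxcl10, which draws T cells, stood at 156, 78.1, 121 and 150.3 CPM after ATV:ISO and 1621, 1153, 1627 and 1620 CPM after ATV:4D9, 12.2-fold higher (log2 fold change 3.61 ± 0.09 (SE), adjusted p = 1.43e-09). Ccl12, which draws monocytes, stood at 359, 219, 266 and 290.2 CPM after ATV:ISO and 4008, 2015, 2146 and 3095 CPM after ATV:4D9 (log2 fold change 3.28 ± 0.08 (SE), adjusted p = 1.5e-09). Ccl4, already abundant after ATV:ISO, stood at 1642, 1111, 1288 and 1302 CPM after ATV:ISO and 4220, 3464, 4427 and 4137 CPM after ATV:4D9 (log2 fold change 1.61 ± 0.07 (SE), adjusted p = 4.42e-08). The member that fell was Ccl24, which draws eosinophils, at 9.08, 8.07, 8.07 and 9.16 CPM after ATV:ISO and 2.06, 1.77, 2.87 and 2.35 CPM after ATV:4D9 (log2 fold change -1.94 ± 0.13 (SE), adjusted p = 5.39e-07, per cell -1.12). Cells with a UMI of Cxcl10 rose from 12.9 to 31.7% to 36.8 to 56.4% (exact permutation adjusted p = 0.0331), whereas the share for Ccl4 overlapped between groups, 57.3 to 79.3% of cells after ATV:ISO and 75.98 to 89.5% after ATV:4D9 (exact permutation adjusted p = 0.0629), and was higher in each pool. The permutations ignore the pools, and a test within 4 pools cannot give a two-sided p under 0.125.

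Among cytokines and growth factors 13 of 21 were called higher and 7 lower, against 37.1% and 37.9% of all genes. Per cell 19 were called higher and 0 lower, against 81.1% and 4.54% of all genes. Tnf stood at 136, 70.9, 103.6 and 133 CPM after ATV:ISO and 665, 563, 979 and 804 CPM after ATV:4D9 (log2 fold change 2.78 ± 0.13 (SE), adjusted p = 7.56e-08), and Il1b, another early cytokine, at 123, 84.1, 101.3 and 93.8 CPM after ATV:ISO and 176, 180.4, 270.1 and 195 CPM after ATV:4D9 (log2 fold change 1.02 ± 0.11 (SE), adjusted p = 2.24e-05). Il12b, a subunit of interleukin 12, rose 16.4-fold (log2 fold change 4.04 ± 0.27 (SE), adjusted p = 6.9e-07). The groups did not overlap in Tnf or Il1b. The list also holds Bmp2k, which encodes a kinase and no ligand and was called lower (-0.51 ± 0.05 log2, per cell 0.31). NF-kB genes split in CPM, with 13 higher and 5 lower of 22, against 37.1% and 37.9% of all genes. Per cell 22 were called higher and 0 lower, against 81.1% and 4.54%. The inhibitor Nfkbia rose (0.65 ± 0.10 log2, adjusted p = 0.000265) and the subunit gene Nfkb1 fell (-0.28 ± 0.04 log2, adjusted p = 6.75e-05, per cell 0.54).

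Immediate early genes, which tissue dissociation can also raise, were not higher as a group in CPM. Of 21 tested 4 were called higher and 9 lower, against 37.1% and 37.9% of all genes. Per cell 16 were called higher and 0 lower, against 81.1% and 4.54%. Fos stood at 2325, 1935, 1938 and 1407 CPM after ATV:ISO and 1734, 2152, 1816 and 1565 CPM after ATV:4D9 (log2 fold change -0.05 ± 0.09 (SE), adjusted p = 0.614), with overlapping groups. Jund stood at 2414, 2176, 1903 and 1687 CPM after ATV:ISO and 995, 1284, 1073 and 929 CPM after ATV:4D9 (log2 fold change -0.93 ± 0.08 (SE), adjusted p = 3.9e-06, per cell -0.11). Ier3, a survival factor induced by NF-kB, was called higher (1.32 ± 0.07 log2, adjusted p = 2.05e-07). Dusp6, a phosphatase that is a sensitive readout of ERK activity, was called lower, at 299, 338, 345 and 364 CPM after ATV:ISO and 144, 187, 194 and 206 CPM after ATV:4D9 (log2 fold change -0.89 ± 0.05 (SE), adjusted p = 1.52e-07), and had a per-cell log2 fold change of -0.07. It was the lowest of the 11 MAPK feedback genes tested, whose highest log2 fold change was 2.97. Of those 11, 5 were called higher and 4 lower, and ERK activity was not tested.

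In the TREM2 pathway itself the receptor and adaptor changed little in CPM. The groups overlapped in both. Trem2 stood at 3206, 2939, 2823 and 2648 CPM after ATV:ISO and 2835, 2589, 2327 and 2425 CPM after ATV:4D9 (log2 fold change -0.19 ± 0.05 (SE), adjusted p = 0.00678, per cell 0.63), a call lost without the pool block (adjusted p = 0.0927, or 0.0534 over all 20 mice) and without pool 3 (0.0811). Tyrobp stood at 3543, 3310, 2927 and 2924 CPM after ATV:ISO and 3709, 3176, 3009 and 3094 CPM after ATV:4D9 (log2 fold change 0.03 ± 0.05 (SE), adjusted p = 0.6). Among proximal members Syk, the kinase that docks on DAP12, stood at 75.1, 86.1, 93.7 and 94.5 CPM after ATV:ISO and 43.3, 47.6, 48.7 and 47.4 CPM after ATV:4D9 (log2 fold change -0.90 ± 0.05 (SE), adjusted p = 1.02e-07, per cell -0.08). Dok3, an inhibitory adaptor, was 2.26-fold lower (log2 fold change -1.18 ± 0.09 (SE), adjusted p = 1.27e-06, per cell -0.36). Over the list 13 of 23 were called lower and 6 higher, against 37.9% and 37.1% of all genes. Without the pool block 8 were called lower, as were 4161 of all 13259 genes. Per cell 18 were called higher and 1 lower, close to the 81.1% and 4.54% of all genes. The median per cell was 0.66 on the log2 scale, against 0.80 for all genes.

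Fc receptors and inhibitory receptors shifted unevenly. Of 8 genes of the Fc gamma receptor list 5 were called lower and 1 higher, against 37.9% and 37.1% of all genes. Per cell 5 were called higher and 3 lower, against 81.1% and 4.54% of all genes. Fcgr3, an activating receptor for IgG, stood at 1141, 1030, 1105 and 1109 CPM after ATV:ISO and 445, 395, 397 and 399 CPM after ATV:4D9 (log2 fold change -1.42 ± 0.04 (SE), adjusted p = 6.11e-09). Fcgr2b, the inhibitory receptor, stood at 241, 218, 230 and 226 CPM after ATV:ISO and 95.3, 88.8, 84.3 and 92.7 CPM after ATV:4D9 (log2 fold change -1.34 ± 0.04 (SE), adjusted p = 5.77e-09). Fcgr4, a further activating receptor, was called higher, at 17.9, 13.6, 16.9 and 20.9 CPM after ATV:ISO and 36.1, 20.2, 24.2 and 29.02 CPM after ATV:4D9 (log2 fold change 0.64 ± 0.08 (SE), adjusted p = 7.65e-05), with groups that overlapped. Fcgr1, the high-affinity receptor, stood at 429.5, 378, 350.5 and 375 CPM after ATV:ISO and 502, 368, 346 and 396 CPM after ATV:4D9 (log2 fold change 0.06 ± 0.05 (SE), adjusted p = 0.3) and also overlapped. The falls of Fcgr3 and Fcgr2b were larger than the common shift of the per-cell scale, which left -0.60 and -0.52 log2. Among Siglecs and inhibitory receptors 9 of 19 were called lower and 6 higher (per cell 12 higher and 5 lower), against 37.9% and 37.1% of all genes. Clec4a3, a C-type lectin, was 3.83-fold lower (log2 fold change -1.94 ± 0.06 (SE), adjusted p = 4.1e-09, per cell -1.12). Cd33, a Siglec known from genetic risk of Alzheimer's disease, stood at 306, 311, 376 and 389 CPM after ATV:ISO and 147, 175, 192 and 185 CPM after ATV:4D9 (log2 fold change -0.98 ± 0.05 (SE), adjusted p = 9.42e-08, per cell -0.16), while Lilrb4a rose 5.10-fold (log2 fold change 2.35 ± 0.17 (SE), adjusted p = 1.19e-06).

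Microglial identity genes fell in CPM. Of 28 homeostatic genes 24 were called lower and 2 higher, against 37.9% and 37.1% of all genes, with a median of -0.60. Per cell the median was 0.22, against 0.80 for all genes. On that scale 15 were called higher and 7 lower, against 81.1% and 4.54% of all genes. Upk1b, which encodes a uroplakin, had the largest fall, from 118, 92.3, 102.8 and 98.2 to 31.6, 38.1, 34.9 and 34.2 CPM (log2 fold change -1.56 ± 0.08 (SE), adjusted p = 1.35e-07), and was lower per cell too (-0.74 log2). Cst3, the most abundant of these transcripts and a secreted protease inhibitor, stood at 64331, 56919, 49164 and 45005 CPM after ATV:ISO and 37346, 34747, 28450 and 28148 CPM after ATV:4D9 (log2 fold change -0.74 ± 0.07 (SE), adjusted p = 1.15e-05), with a per-cell change of 0.08.

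Transcription factors of microglia were called lower in CPM in 15 of 21 and higher in 3, against 37.9% and 37.1% of all genes. Per cell 14 were called higher and 2 lower, against 81.1% and 4.54% of all genes. Their median per cell was 0.39, against 0.80 for all genes. Cebpa, a myeloid lineage factor, stood at 306, 327, 373 and 306 CPM after ATV:ISO and 119, 129, 132 and 121 CPM after ATV:4D9 (log2 fold change -1.39 ± 0.04 (SE), adjusted p = 5.77e-09). Maf stood at 685, 791, 801 and 851 CPM after ATV:ISO and 271, 372, 327 and 328 CPM after ATV:4D9 (log2 fold change -1.27 ± 0.05 (SE), adjusted p = 3.56e-08). The 2 called lower per cell were Cebpa and Maf (-0.57 and -0.45 log2). Spi1, which encodes the master regulator PU.1, stood at 539.9, 466, 405 and 399 CPM after ATV:ISO and 499, 436, 401 and 402 CPM after ATV:4D9 (log2 fold change -0.05 ± 0.04 (SE), adjusted p = 0.266). Of the receptor and ligand of microglial survival, the receptor was lower and the ligand higher in CPM, and both were called higher per cell (0.26 and 1.95 log2). Csf1r stood at 3045, 2642, 2797 and 2740 CPM after ATV:ISO and 2028, 1862, 1837 and 1896 CPM after ATV:4D9 (log2 fold change -0.56 ± 0.05 (SE), adjusted p = 4.16e-06). Csf1 stood at 33.8, 33.7, 49.3 and 45.4 CPM after ATV:ISO and 67.02, 65.9, 107 and 119.7 CPM after ATV:4D9 (log2 fold change 1.13 ± 0.07 (SE), adjusted p = 3.5e-07).

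The disease-associated genes did not move as 1 block in CPM. Of 30 tested 19 were called higher and 8 lower, against 37.1% and 37.9% of all genes. Per cell 25 were called higher and 0 lower, close to the 81.1% and 4.54% of all genes. The median per cell was 1.38, against 0.80 for all genes. Cst7, a protease inhibitor, stood at 105, 104.2, 115 and 101.8 CPM after ATV:ISO and 302, 222, 289 and 295 CPM after ATV:4D9 (log2 fold change 1.37 ± 0.07 (SE), adjusted p = 1.12e-07). Lpl, which releases fatty acids from lipoproteins, stood at 45.2, 98.2, 60.4 and 46.4 CPM after ATV:ISO and 197, 213, 224 and 271 CPM after ATV:4D9 (log2 fold change 1.91 ± 0.18 (SE), adjusted p = 7.45e-06). Apoe, the lipid carrier, was called lower, at 1218, 2276, 1651 and 1650 CPM after ATV:ISO and 618, 599.7, 1200 and 998 CPM after ATV:4D9 (log2 fold change -1.02 ± 0.19 (SE), adjusted p = 0.000836), with a per-cell change of -0.19 and a share of cells that overlapped between the groups but was lower in each pool, 69.1 to 93.6% of cells after ATV:ISO and 58.01 to 89.2% after ATV:4D9 (exact permutation adjusted p = 0.389). Spp1, which encodes osteopontin, stood at 20.2, 421, 55.03 and 101.3 CPM after ATV:ISO and 19.5, 19.5, 43.1 and 22.3 CPM after ATV:4D9 (log2 fold change -1.81 ± 0.63 (SE), adjusted p = 0.0244, per cell -0.96). The groups overlapped, the ATV:ISO mouse of pool 2 was far above the others, and the log2 fold change was -0.95 without pool 2 and -1.08 with cells of 1000 to 25000 UMIs. It was -2.52 without the pool block, and reached -2.56 over all 20 mice without it. The call was lost without pool 4 (adjusted p = 0.0882) and with DESeq2 (0.0724).

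Antigen presentation genes were mixed. Of 9 class II genes 2 were called higher and 4 lower, against 37.1% and 37.9% of all genes. Per cell 7 were called higher and 0 lower, close to the 81.1% and 4.54% of all genes. Cd74, the chaperone of MHC class II, stood at 119, 139, 149 and 119 CPM after ATV:ISO and 322, 289.7, 254 and 241 CPM after ATV:4D9 (log2 fold change 1.06 ± 0.09 (SE), adjusted p = 2.72e-06). H2-Aa, a class II chain, stood at 21.4, 23.6, 41.4 and 32.9 CPM after ATV:ISO and 23.02, 18.4, 33.6 and 31.6 CPM after ATV:4D9 (log2 fold change -0.16 ± 0.07 (SE), adjusted p = 0.0747), with overlapping groups and a fall called without pool 1 (adjusted p = 0.0092). H2-Oa, a chain of the peptide-loading regulator H2-O, stood at 59.7, 51.9, 47.3 and 46.1 CPM after ATV:ISO and 31.2, 31.5, 27.99 and 29.6 CPM after ATV:4D9 (log2 fold change -0.76 ± 0.05 (SE), adjusted p = 7.71e-07, per cell 0.06). Ctss, the protease that trims the class II chaperone, stood at 6939, 6187, 5524 and 5166 CPM after ATV:ISO and 4707, 4378, 3480 and 3467 CPM after ATV:4D9 (log2 fold change -0.58 ± 0.06 (SE), adjusted p = 8.6e-06, per cell 0.25). A UMI of Cd74 was found in 18.5 to 26.9% of cells after ATV:ISO and 40.97 to 45.1% after ATV:4D9 (exact permutation adjusted p = 0.0331) and one of H2-Aa in 4.44 to 9.59% of cells after ATV:ISO and 3.55 to 8.22% after ATV:4D9 (exact permutation adjusted p = 0.486), lower in each pool. Class I and its loading complex were called higher in 10 of 16 and lower in 1, against 37.1% and 37.9% of all genes (per cell 16 higher and 0 lower). Among innate sensors Tlr2 rose, from 112, 98.3, 101.3 and 107 to 320.1, 247, 300.5 and 314 CPM (log2 fold change 1.49 ± 0.05 (SE), adjusted p = 7.8e-09). Of 17 members of the Toll-like list 11 were called lower and 5 higher, against 37.9% and 37.1% of all genes. Per cell 14 of them were called higher and 1 lower, close to 81.1% and 4.54%. Lysosomal genes gave 11 higher and 17 lower of 40, against 37.1% and 37.9% of all genes (per cell 35 higher and 0 lower), and Gusb had the largest rise, from 208, 185, 189 and 188 to 447, 412, 406 and 418 CPM (log2 fold change 1.13 ± 0.04 (SE), adjusted p = 9.16e-09).

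Most cytoskeletal genes on the lists were called higher. Stmn1, which destabilises microtubules, stood at 63.3, 47.9, 56.1 and 54.7 CPM after ATV:ISO and 776, 569, 573 and 531 CPM after ATV:4D9, 10.9-fold higher (log2 fold change 3.45 ± 0.07 (SE), adjusted p = 3.69e-10). Tubb5 stood at 311, 256, 251 and 274 CPM after ATV:ISO and 1343, 1017, 1164 and 1124 CPM after ATV:4D9 (log2 fold change 2.09 ± 0.05 (SE), adjusted p = 1.37e-09). Of 12 tubulins and stathmin tested 9 were called higher and 1 lower. Of 20 genes of actin and migration 13 were called higher and 2 lower (per cell 18 higher and 2 lower), with a median of 0.41. Actb and Actg1 rose by 0.66 ± 0.06 and 0.88 ± 0.08 on the log2 scale, while Cdc42ep3, an effector of the GTPase CDC42, fell (-1.16 ± 0.07, per cell -0.34).

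Genes of the TGF-beta pathway and purinergic receptors were mostly called lower in CPM, and their per-cell counts stand against 81.1% of all genes called higher and 4.54% lower. TGF-beta pathway genes were called lower in 10 of 16 (per cell 15 higher and 0 lower), among them Eng, a co-receptor (-0.92 ± 0.04 log2, adjusted p = 6.3e-08, per cell -0.10). Purinergic receptors and ectoenzymes were called lower in 7 of 10 (per cell 6 higher and 2 lower), and Entpd1, which degrades extracellular ATP, had a log2 fold change of -1.26 ± 0.04 (-0.44 per cell). Complement genes were called higher in 6 of 14, near the 37.1% of all genes, but in 3 without the pool block and in 2 without pool 3, and C5ar1, the receptor for C5a, rose 2.85-fold (log2 fold change 1.51 ± 0.07 (SE), adjusted p = 5.89e-08). Phagocytic uptake gave 6 higher and 8 lower of 19 (per cell 17 higher and 0 lower), with Mertk, the receptor for apoptotic cells, lower (-0.67 ± 0.04 log2, adjusted p = 6.02e-07, per cell 0.15). Several small lists gave counts to be set against 37.1% of all genes called higher and 37.9% lower. MAPK feedback genes gave 5 higher and 4 lower of 11 (per cell 9 higher and 0 lower), and hypoxia targets 5 and 2 of 11 (per cell 9 higher and 0 lower). Tetraspanins gave 5 and 6 of 13 (per cell 11 higher and 0 lower), the Ms4a family 2 and 1 of 5 (per cell 4 higher and 0 lower), and the pentose phosphate pathway 5 and 0 of 7.

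The same contrast in AppSAA mice, which carry a mutant App knock-in beside TfRmu/hu and were 8 months old per the study's reporting summary, served to show where the wild-type effect differs, with the difference tested as an interaction over 16 mice (28.1% of genes called). In that fit the wild-type effect of Hells was 5.08 and the AppSAA effect 3.99. For the 10 largest rises the AppSAA effect lay between 3.52 (Ung) and 4.08 (Cdc6), smaller than in wild-type mice in each gene, and for the 10 largest falls between -1.77 (Tcp11l2, -3.34 in wild-type mice) and -1.002 (Pirb). The difference was called in 19 of these 20 genes and not in Fcrl1 (adjusted p = 0.0594). Of the 19 calls those of Cdc6, Ablim1, Ypel2, Peg13 and Pde2a were lost under at least 1 alternative, and Fcrl1 was called without pool 1. Because the 20 genes were chosen for the size of their wild-type effect, a smaller effect elsewhere is partly given by that choice. The replication list, which holds some of these 20 genes, showed the same order, with 48 of 56 genes called as smaller in AppSAA mice (median 2.90) and 0 as larger, as did the cytosolic ribosomal proteins, with 77 of 80 (median 0.04). Interferon-stimulated genes went the other way, with 21 of 34 called as larger in AppSAA mice (median 2.02). These 3 lists were picked after their values were seen.

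**Figure D5:**
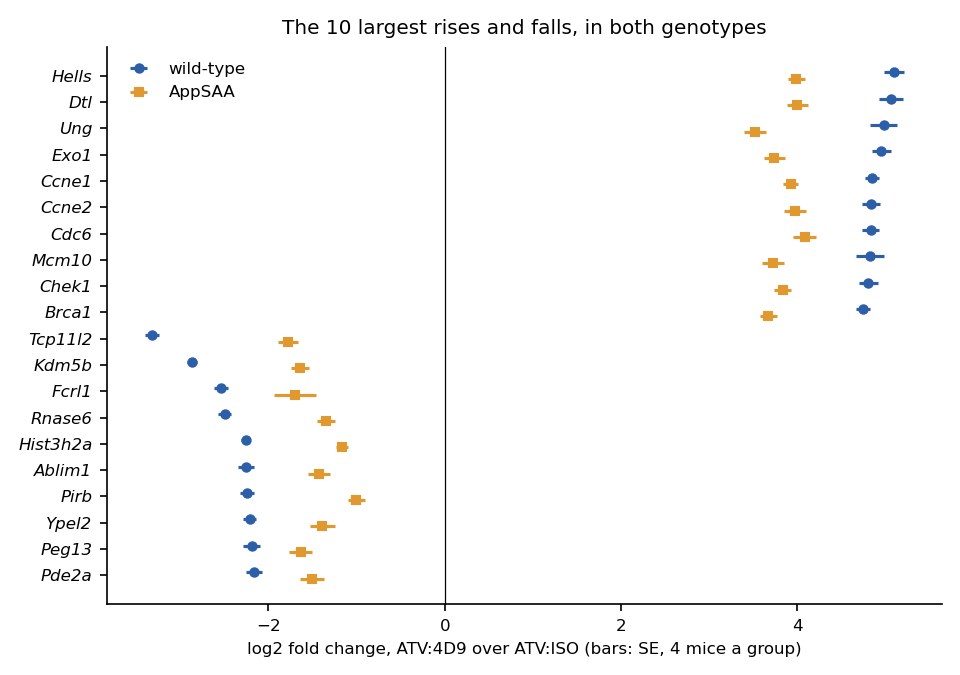
Log2 fold change of ATV:4D9 over ATV:ISO with its SE for the 10 largest rises and 10 largest falls of the wild-type mice, in wild-type mice (circles, from the fit of 8 mice) and AppSAA mice (squares, from the fit of 16 mice). Every wild-type point lies farther from 0 than the AppSAA point of its gene, from 5.10 against 3.99 for Hells to -2.16 against -1.50 for Pde2a.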

How the data were processed

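Sorted brain myeloid cells of 8 wild-type mice, 4 a group, were compared. Per the labels and the study's methods the authors aligned 10x 3′ reads to mm10 with Cell Ranger 6.1.1, assigned cells to mice by oligo tags and deposited UMI counts per gene and cell without normalization; doublet removal is not given in the sources used here. All deposited cells were kept. Counts were summed per mouse, genes filtered with filterByExpr, and tested with edgeR 4.0.16 (R 4.3.3, TMM, quasi-likelihood, pool as block, Benjamini-Hochberg, threshold 0.05). Same-numbered mice were paired by the protocol (1 mouse of each group per pool), and their deviations correlated at 0.245 to 0.457. Between mice of different pools the correlations ran from -0.379 to 0.278. The highest of these was ATV:ISO of pool 4 with ATV:4D9 of pool 3, above the 0.245 of the pair of pool 2. UMIs per cell used the number of cells as library size. Shares of cells are expected values at 3000 UMIs. Cells under 3000 UMIs (10 to 55 a mouse) were left out of the shares. limma-voom, DESeq2 and other settings were alternatives. Named genes are the 10 largest called rises and falls (mean of at least 10 CPM, 4 of 4 pools, no Gm, Rik or accession name), the first 2 of each of 53 lists, the 3 largest called members in its main direction and the 1 largest in the other. Atf4, Il12b and Ccl24 were added after their values were seen. Members and lists were chosen with earlier results of these data known, and promoters (RefSeq) matched 9995 genes by symbol. Replicates were separate mice. Some of the genes named by this rule are not reported here.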

Additional observations from a re-analysis of the deposited data

Results flagged for a closer look

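In 200 groups of 4 mice whose CPM is given, 13 held a mouse far from the other 3 by Dixon's criterion, which chance meets in about 1 in 20 groups. Among ATV:4D9 mice that of pool 1 was the highest at 445 CPM for Fcgr3 and 776 CPM for Stmn1. In pool 1 the ATV:4D9 mouse was the lowest of its group at 54.5 CPM for Ddx3y. Among ATV:4D9 mice that of pool 2 was the highest at 21.2 CPM for Pdcd4. In pool 2 the ATV:4D9 mouse was the lowest of its group at 288 CPM for Ccnd1, 222 CPM for Cst7 and 1153 CPM for Cxcl10. Among ATV:4D9 mice that of pool 3 was the highest at 43.1 CPM for Spp1. Among ATV:4D9 mice that of pool 4 was the highest at 6.90 CPM for Xist. Among ATV:ISO mice that of pool 1 was the highest at 208 CPM for Gusb. Among ATV:ISO mice that of pool 4 was the highest at 23.2 CPM for Pirb and 1384 CPM for Xist. In pool 4 the ATV:ISO mouse was the lowest of its group at 5.79 CPM for Ddx3y.

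The effect of ATV:4D9 differed between genotypes in 19 of the 20 genes with the largest wild-type changes (edgeR interaction term, adjusted p under 0.05). The AppSAA effect minus the wild-type effect, on the log2 scale, was -1.09 for Hells, -1.05 for Dtl, -1.44 for Ung, -1.19 for Exo1, -0.90 for Ccne1, -0.85 for Ccne2, -0.73 for Cdc6, -1.08 for Mcm10, -0.95 for Chek1 and -1.06 for Brca1 among the genes that rose. It was 1.57 for Tcp11l2, 1.25 for Kdm5b, 1.16 for Rnase6, 1.12 for Hist3h2a, 0.86 for Ablim1, 1.26 for Pirb, 0.84 for Ypel2, 0.58 for Peg13 and 0.68 for Pde2a among the genes that fell. With 1 pool left out the calls of 5 genes were lost. Cdc6 gave -0.84 without pool 1 (adjusted p = 0.0602), -0.41 without pool 3 (adjusted p = 0.211) and -0.88 without pool 4 (adjusted p = 0.0899). Ablim1 gave 0.59 without pool 4 (adjusted p = 0.0633). Ypel2 gave 0.79 without pool 4 (adjusted p = 0.072). Peg13 gave 0.54 without pool 2 (adjusted p = 0.116), 0.56 without pool 3 (adjusted p = 0.139) and 0.50 without pool 4 (adjusted p = 0.178). Pde2a gave 0.41 without pool 2 (adjusted p = 0.0568) and 0.57 without pool 4 (adjusted p = 0.132). The difference of Ypel2 was 0.56 without pool 2 and kept its call. These genes were chosen for their wild-type effect.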

How the results depend on the processing

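The counts of calls stayed within 1.5 times of 4917 higher and 5023 lower under all 13 alternatives, from 4317 to 5173 higher and from 4161 to 5483 lower. Without the pool block 4317 were higher and 4161 lower, and of genes named by the rule Trem2, Olfml3, Nars, Hmgcs1, Hspa1b, C1qa, C3ar1, Itgb2, Lamp1, Tgfbr2, Smad2 and Ms4a6c then lost their call. DESeq2 gave 4653 and 4546, and cells of 1000 to 25000 UMIs, a fit added after seeing the data, 4810 and 4918. The difference in median UMIs per cell was 7325 to 8267 with 1 pool left out, where 3 against 3 mice cannot give an exact permutation p under 0.1. Of all log2 fold changes recomputed for named genes, 3428 kept direction and side of the threshold, 49 lost it, 7 gained it and 26 changed sign. Of the 26, 15 are of 4 Y-linked genes, not called with all mice. Their log2 fold changes were 0.16 for Ddx3y, 0.48 for Eif2s3y, 0.13 for Uty and 0.05 for Kdm5d with all mice, and with 1 pool left out ran from -0.53 to 0.49, -0.19 to 0.79, -0.50 to 0.41 and -0.55 to 0.39, each lowest without pool 4, which holds the recorded female mouse. Without it all 4 were called lower (adjusted p = 3.34e-05, 0.00617, 0.000181 and 0.00033). Without the block Ddx3y, Uty and Kdm5d gave -0.13, -0.063 and -0.18, over all 20 mice -0.098, -0.025 and -0.12 with the block and -0.16, -0.090 and -0.21 without it, and Kdm5d gave -0.10 with limma-voom and -0.063 with thinned totals. With 1 pool left out Slc11a1 ran from -0.041 to 0.013, Cpt1a from -0.085 to 0.0034, H2-D1 from -0.017 to 0.19, Fos from -0.12 to 0.061, Fcgr1 from -0.0029 to 0.092, Ms4a7 from -0.57 to 0.20 and Bnip3 from -0.016 to 0.18. Without the filter on low counts Slc11a1 gave 0.010 and Cpt1a 0.0061, and with cells of 1000 to 25000 UMIs H2-Aa gave 0.023. The difference between genotypes lost its call for Cdc6, Ablim1, Ypel2, Peg13 and Pde2a under at least 1 alternative each, and that of Fcrl1 was called without pool 1 (adjusted p = 0.0263). The 4 mice a group and the single day bound every comparison, and the depth of a mouse, at least 17150296 UMIs, limits genes near 1 CPM most.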
